A study of Mus musculus with 6 samples.

Results

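The genes described here encode proteins of the mitochondrial ribosome, the mitoribosome, and were followed in RNA of mouse thalamus. Members were all rows of the count tables whose symbol begins with Mrpl or Mrps followed by a digit and that reached at least 1 CPM (the reads of a gene scaled by all gene reads of its library) in 3 or more of the 6 libraries. The symbol was met by 77 rows, and 75 of them passed the minimum, out of 32532 gene rows in all. Of these 75 members, 46 carry a large subunit symbol (Mrpl) and 29 a small subunit symbol (Mrps).

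The mitoribosome translates the few proteins encoded in mitochondrial DNA, which are core subunits of the respiratory chain and of ATP synthase. Its proteins are encoded in the nucleus, made on cytosolic ribosomes and imported, and they join mitochondrially encoded rRNA in a small subunit that decodes mRNA and a large subunit that forms peptide bonds. Some of these proteins have bacterial relatives, and others are particular to mitochondria. Neurons draw much of their ATP from oxidative phosphorylation, for which this ribosome makes core parts.

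The libraries came from translating ribosome affinity purification (TRAP), in which an EGFP-tagged ribosomal protein lets the mRNA on the ribosomes of chosen cells be pulled down. The 3 IP libraries held RNA purified with anti-EGFP antibodies from homogenised thalamus of adult, untreated control mice of line JX883 (Slc17a6-EGFP/Rpl10a). The 3 Input libraries came from thalamus of mice of that same line, also adult and untreated, so every library carries the transgene. The tag sits on Rpl10a, a protein of the cytosolic ribosome, so IP reports on cytosolic ribosomes holding mRNA for mitoribosome proteins, and not on translation inside mitochondria. The line takes its name from Slc17a6, which encodes VGLUT2, a transporter that loads glutamate into synaptic vesicles, and IP represents only cells in which this 1 line makes the tag. Although the Input libraries are labelled as ribosomal-bound too, they were treated here as whole-tissue RNA. The labels give no sex and no age in days. Nor do they state whether each replicate was its own animal, so the spread behind the p-values may be technical.

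Depth ranged from 52068145 to 54421395 gene reads per IP library and from 44081149 to 47340322 per Input library, where 3 reads equal 0.0551 to 0.0681 CPM. Markers of most other cell types were depleted in IP: all 7 oligodendrocyte markers fell, with summed levels of 153 to 277 CPM in IP and 3211 to 4926 CPM in Input. Of the astrocyte markers 6 of 7 fell, with sums of 418 to 869 CPM in IP and 1656 to 3183 CPM in Input, and all 3 GABAergic markers fell, with sums of 51.6 to 128 CPM in IP and 672 to 961 CPM in Input. Of 7 microglial markers 6 fell (1.91 to 3.16 CPM in IP, 42.0 to 66.3 CPM in Input), as did all 3 of oligodendrocyte precursors (2.78 to 3.46 CPM in IP, 37.1 to 63.7 CPM in Input) and 3 of 6 of endothelial and mural cells (1.47 to 2.65 CPM in IP, 23.2 to 26.3 CPM in Input). The 7 thalamic glutamatergic markers, Slc17a6 among them, summed to between 6161 and 10460.4 CPM in IP and 2209 to 6928 CPM in Input, and 1 of the 7 rose. Of 5 pan-neuronal markers 1 rose, and their sums did not overlap between the groups, at 16492 to 23650 CPM in IP and 13245 to 15336 CPM in Input. Choroid plexus markers summed to 1.39 to 38.0 CPM in IP and to 7.88 to 1164 CPM in Input, where replicate 3 was the high one. These sums overlap, and of the 2 choroid plexus markers tested 0 rose and 0 fell. The part of this shift in cell types in the results on mitoribosome genes was not tested, and in such bulk samples fewer cells of a type cannot be told apart from less RNA per cell.

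Mitoribosome genes were higher in IP than in Input as a group. Of the 75 members, 33 rose and 0 fell by the edgeR quasi-likelihood test at a Benjamini-Hochberg adjusted p under 0.05 over 16496 genes tested. Over all genes tested, 9.6% rose and 15.6% fell, and over protein-coding genes 10.9% rose. All 33 members that rose did so by at least 1.5-fold, against 9.37% of all genes, and 22 of them by at least 2-fold, against 4.8% of all genes. The median log2 fold change of the members was 0.81 (quartiles 0.56 and 1.06, range -0.18 to 1.85), beside a median of -0.04 over all genes tested and 0.02 over protein-coding genes. At an unadjusted p under 0.05, 50 members were higher and 0 lower, and with DESeq2 39 rose and 0 fell and with limma-voom 36 rose and 0 fell. Of all 16496 genes tested, 2664 were higher and 3636 lower at an unadjusted p under 0.05. With DESeq2 2090 of them rose and 3263 fell, and with limma-voom 1742 rose and 2714 fell. The fitted change was positive for 71 members and negative for 4, and none of these 4 passed the test. Over all genes tested it was positive for 7927 and negative for 8569.

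Libraries with the same replicate number varied together, so this number was also fitted as a block. With this block 50 members rose and 0 fell, and 15.9% of all genes tested rose and 19.2% fell. These 50 included all 33 of the fit without the block. Every IP library lay above every Input library for 46 members, against 19.9% of all genes tested, and for no member did every IP library lie below. In 63 members IP was above Input within all 3 replicate numbers, a count for which no share over all genes was taken. The count without the block depended on the libraries kept. It was 33, 17 and 17 without IP replicate 1, 2 or 3, and 25, 20 and 41 without Input replicate 1, 2 or 3. When both libraries of a number were left out, it was 32 without replicate 1, 4 without replicate 2 and 22 without replicate 3.

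Summed over the 75 members, the TMM-scaled level was 2932, 3518 and 3488 CPM in IP replicates 1, 2 and 3, and 1615, 1959 and 2110 CPM in Input replicates 1, 2 and 3. The lowest IP library thus lay above the highest Input library, and replicate 1 was the lowest of both groups. The means were 3313 ± 330 CPM over the 3 IP libraries and 1895 ± 253 CPM over the 3 Input libraries (SD, n = 3 each). As a share of all gene reads, members took 0.266%, 0.359% and 0.358% in the IP libraries and 0.157%, 0.212% and 0.211% in the Input libraries. The ratio of these shares, IP over Input, was 1.69, 1.69 and 1.70 in replicates 1, 2 and 3, a narrow range although the share itself differed between replicates. On the TMM scale the same ratios were 1.82, 1.80 and 1.65. Replicate 1 held the lowest IP value for 52 members and the lowest Input value for 46, and both for 35.

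**Figure D1:**
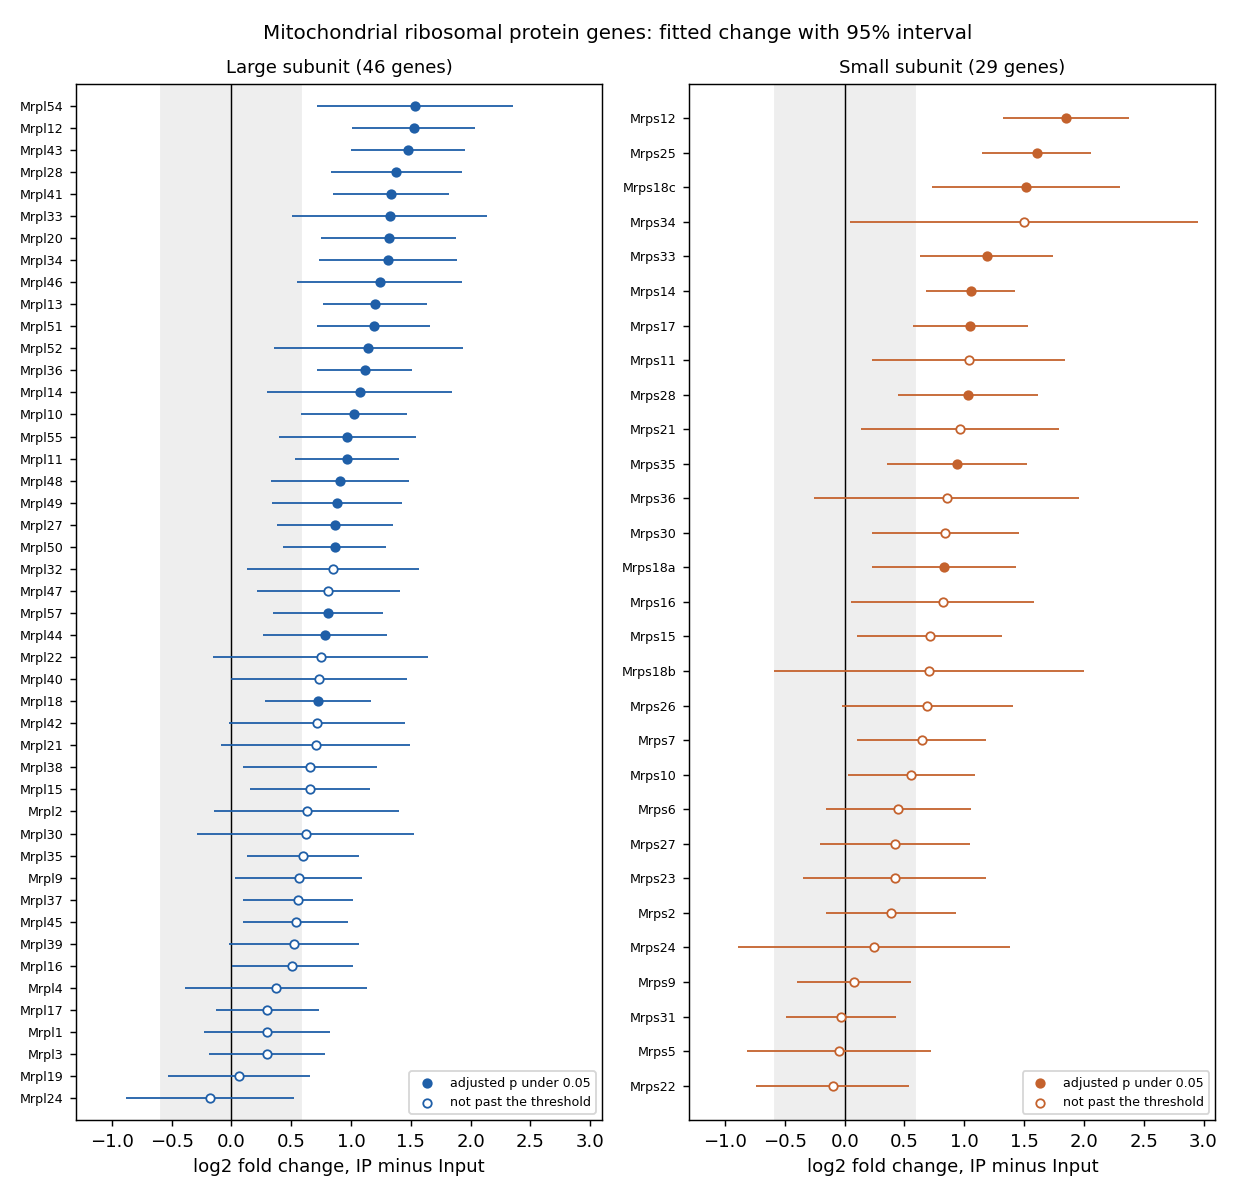
Fitted log2 fold change, IP minus Input, of the 46 large subunit genes (left) and 29 small subunit genes (right), with 95% intervals as lines. Filled points passed an adjusted p under 0.05 and the grey band marks 1.5-fold either way; the points lie mostly right of 0 in both panels, and no filled point lies left of it.

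The large and small subunits had medians close to each other. The median log2 fold change was 0.81 for the 46 large subunit members (quartiles 0.61 and 1.14) and 0.82 for the 29 small subunit members (quartiles 0.42 and 1.04). Within replicates 1, 2 and 3, the median log2 ratio of large members minus that of small members was -0.20, 0.22 and -0.02 (SD 0.21), so its sign was not the same in each replicate. Counts of calls stood at 24 of 46 (52.2%) for the large and 9 of 29 (31.0%) for the small subunit, and with the replicate block at 34 and 16. The difference between these shares was not tested. Groups did not overlap, with IP higher, for 33 of 46 large and 13 of 29 small subunit members, beside 19.9% of all genes tested.

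Large subunit genes summed to 1998, 2432 and 2394 CPM in IP replicates 1, 2 and 3, and to 1125, 1324 and 1421 CPM in Input. Small subunit genes summed to 934, 1085 and 1094 CPM in IP and to 491, 635 and 689 CPM in Input. For each subunit all IP libraries lay above all Input libraries. The large subunit took 68.1%, 69.2% and 68.6% of the members' summed level in IP and 69.6%, 67.6% and 67.4% in Input, and these ranges overlapped.

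**Figure D2:**
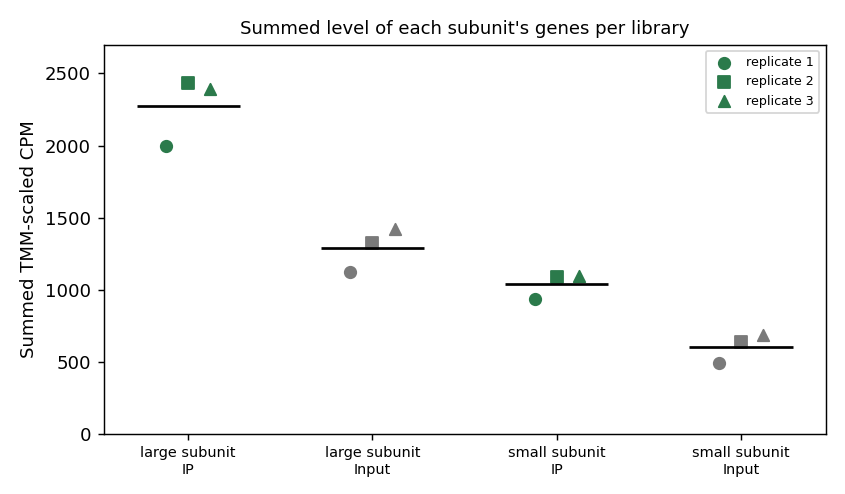
Summed TMM-scaled CPM of the large subunit genes and of the small subunit genes in each library, IP left of Input, with replicates as symbols and group means as lines. Within each subunit the 3 IP libraries lie above the 3 Input libraries, and replicate 1 is the lowest of each group.

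Symbols do not always give the place of a protein in the particle. The products of Mrps18a and Mrps30 are found in the large subunit of the mammalian mitoribosome, and Mrps36 encodes a protein now known as a part of the alpha-ketoglutarate dehydrogenase complex. Sorted by structure, 25 of 48 large subunit members rose, at a median log2 fold change of 0.82, and 8 of 26 small subunit members rose with a median of 0.71. Mrps30 had 17.3, 17.6 and 18.7 CPM in IP and 11.2, 11.3 and 7.35 CPM in Input, with no overlap. Its log2 fold change of 0.84 ± 0.27 (SE) narrowly missed the threshold (edgeR adjusted p = 0.0505) and passed it with the replicate block (edgeR adjusted p = 0.0315). Mrps36 had 3.28, 6.37 and 9.32 CPM in IP and 3.41, 4.62 and 2.47 CPM in Input, groups that overlap, and the test was not passed at a log2 fold change of 0.85 ± 0.49 (edgeR adjusted p = 0.237).

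The largest rise was that of Mrps12, which encodes the conserved protein of the decoding centre that contacts the codon and anticodon. Mrps12 (chr7:28739641-28741820, minus strand, GRCm38) had 82.9, 73.1 and 63.2 CPM in IP replicates 1, 2 and 3 and 16.7, 25.4 and 18.7 CPM in Input. The lowest IP value was above the highest Input value, and unlike the summed level, replicate 1 was the highest of the IP libraries. Its log2 fold change was 1.85 ± 0.23 (SE; edgeR adjusted p = 0.00121). Mrps25, a small subunit protein without a bacterial relative (chr6:92169525-92184033, minus strand), had 81.6, 72.2 and 66.2 CPM in IP and 27.1, 24.5 and 20.7 CPM in Input. Here too the groups were apart, and the log2 fold change was 1.61 ± 0.20 (edgeR adjusted p = 0.00122). Of the exon bases of Mrps25, 69.8% overlap exons of Nr2c2, a nuclear receptor gene on the other strand. Nr2c2 itself was not called, with a log2 fold change of 0.37 (edgeR adjusted p = 0.136), and since the strand setting of the counts is not given, reads of this pair cannot be told apart.

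Among large subunit members, Mrpl12 encodes the protein of the L7/L12 stalk, which recruits translation factors and is also reported to bind the mitochondrial RNA polymerase. Mrpl12 (chr11:120484613-120489065, plus strand) had 82.6, 56.7 and 58.3 CPM in IP and 21.2, 26.3 and 21.3 CPM in Input. All IP values were more than 2 times the highest Input value, and the log2 fold change was 1.52 ± 0.23 (edgeR adjusted p = 0.00266). Mrpl54, a large subunit protein particular to mitochondria, had 13.8, 29.2 and 26.7 CPM in IP and 5.50, 9.17 and 9.37 CPM in Input. Replicate 1 was the lowest of both groups, and the log2 fold change was 1.54 ± 0.36 (edgeR adjusted p = 0.0160). Mrpl54 lost its call without IP replicate 2 (edgeR adjusted p = 0.0682) or IP replicate 3 (edgeR adjusted p = 0.0568), and kept it when any 1 of the other 4 libraries was left out.

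After Mrps18c of the small subunit, described with its family, the next rises were Mrpl43, Mrpl28, Mrpl41, Mrpl33 and Mrpl20 of the large subunit, with log2 fold changes of 1.48, 1.38, 1.34, 1.32 and 1.31 and edgeR adjusted p-values between 0.00211 and 0.0276. Mrpl41, a protein particular to mitochondria, was the most abundant of them per kilobase of mRNA and had 89.1, 98.8 and 69.2 CPM in IP and 28.6, 35.4 and 37.9 CPM in Input. Mrpl33, a counterpart of bacterial L33 and the shortest member at 65 amino acids, had 48.3, 48.5 and 44.2 CPM in IP and 10.1, 16.4 and 29.8 CPM in Input. The spread of Mrpl33 lay in Input, where replicate 3 was nearly 3 times replicate 1, and its call was kept only in the fits without Input replicate 1 or without Input replicate 3, out of 6 that each left out 1 library. Mrpl43, which has no bacterial relative, shares 33.4% of its exon bases with the mitochondrial helicase gene Peo1 (Twnk) on the opposite strand. Peo1 was at 7.40, 6.90 and 8.82 CPM in IP and 7.83, 8.90 and 3.16 CPM in Input. Mrpl43 itself was at 63.2, 52.3 and 52.0 CPM in IP and 17.1, 22.8 and 20.2 CPM in Input. Of the 33 members that rose, 16 kept their call in all 6 such fits, and 69 of the 75 members had a positive change in all 6.

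**Figure D3:**
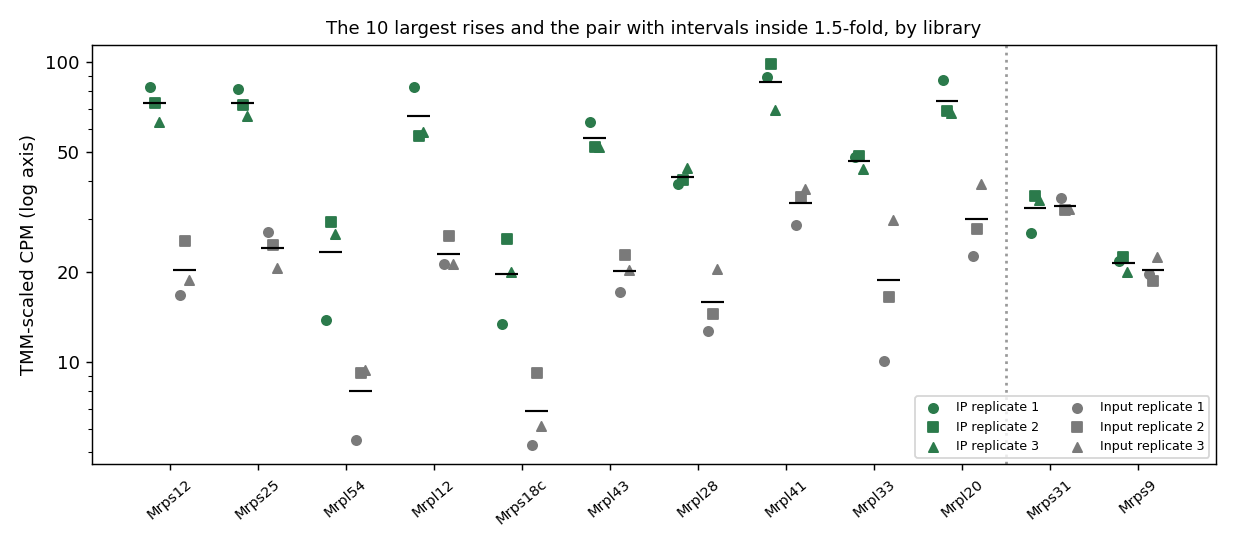
TMM-scaled CPM on a log axis in each library for the 10 members with the largest rises, left of the dotted line, and for Mrps31 and Mrps9, right of it; IP stands left of Input, symbols are replicates and lines are means. For the 10 rises no Input symbol reaches the lowest IP symbol of its gene, while for Mrps31 and Mrps9 the groups lie on top of each other.

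Members that stay flat were read from the interval of the change, since a missed threshold does not show that a gene is unchanged. The 95% interval lay wholly inside 1.5-fold for 2 of the 75 members, beside 4.21% of all genes tested, and both are small subunit genes. Mrps31, a small subunit protein particular to mitochondria, had 27.0, 35.9 and 34.8 CPM in IP and 35.1, 32.1 and 32.3 CPM in Input. Its lowest and its highest value were both IP libraries, and its log2 fold change was -0.03 (95% interval -0.49 to 0.43). Mrps9, the relative of bacterial S9 whose tail reaches towards the tRNA in the P site, had 21.8, 22.4 and 19.9 CPM in IP and 19.6, 18.7 and 22.4 CPM in Input. These values interleave, and its log2 fold change was 0.08 (95% interval -0.40 to 0.56). Neither kept an interval inside 1.5-fold without IP replicate 2, IP replicate 3 or Input replicate 2, and with the wider limit of 2-fold 11 of the 75 members qualified, beside 24.3% of all genes tested.

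The 4 members with a negative estimate were Mrps31, Mrps5, Mrps22 and Mrpl24, named after their values were seen. Mrps5, the relative of bacterial S5 near the mRNA entry, had 9.14, 14.9 and 16.7 CPM in IP and 10.8, 19.3 and 11.96 CPM in Input. Mrps22, a small subunit protein particular to mitochondria, had 18.5, 26.2 and 28.03 CPM in IP and 20.2, 22.8 and 35.1 CPM in Input. Mrpl24, the relative of bacterial L24, had 7.34, 11.4 and 7.37 CPM in IP and 10.4, 9.94 and 9.17 CPM in Input. In each of these the groups overlapped, and the log2 fold changes were -0.05, -0.10 and -0.18 for Mrps5, Mrps22 and Mrpl24. Their intervals reached beyond 1.5-fold, so they count neither as flat nor as changed. In all, 25 members were called neither with nor without the replicate block. Every IP library lay above every Input library for 7 of these 25. The share of 19.9% over all genes tested includes called genes, so it is not a like background for these 25.

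Promoters of the members were read from RefSeq on GRCm38.p6, from 250 bases before to 50 after the first listed start, and 66 of the 75 members had an entry. Genes for mitochondrial proteins are known as targets of NRF1 and of the ETS factor GABP (NRF2), so short motifs of these factors were searched on both strands. The NRF1 motif GCGCANGCG was present in 16 of 66 members' promoters (24.2%), against 6.47% of all 27025 promoters and 8.83% of those of protein-coding genes. The ETS motif CCGGAAG was present in 23 (34.8%), against 9.12% of all and 11.9% of protein-coding promoters, and 1 or the other in 33 of the 66, against 14.3% of all promoters. The motifs GATGGCGG (YY1), GGGCGG (SP1) and TGACGTCA (CRE) were present in 5, 33 and 2 of the 66 members' promoters and in 1.74%, 35.9% and 1.88% of all promoters. Over promoters of protein-coding genes these shares were 2.31%, 46.3% and 2.34%, so that for SP1 the members' 33 of 66 lay near this background. Members of the large subunit held the NRF1 motif in 30.0% and the ETS motif in 30.0% of promoters, and those of the small subunit in 15.4% and 42.3%.

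A match is a description of these letters and no evidence of binding. The 5 windows printed here run from 130 bases before to 20 after the start, 5′ to 3′ on the gene's strand, with NRF1, ETS and SP1 matches in capitals. They belong to the 3 members with the largest rises that had an entry (Mrpl54 had none), namely Mrps12 (chr7:28741802-28741951, minus strand), Mrps25 (chr6:92184004-92184153, minus strand) and Mrpl12 (chr11:120484507-120484656, plus strand). The windows of Mrps9 (chr1:42851103-42851252, plus strand) and Mrps31 (chr8:22411210-22411359, plus strand), the pair with flat intervals, are set beside them.
Mrps12: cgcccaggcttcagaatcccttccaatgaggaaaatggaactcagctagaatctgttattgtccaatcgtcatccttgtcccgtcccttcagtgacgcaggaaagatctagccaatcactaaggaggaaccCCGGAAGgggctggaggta
Mrps25: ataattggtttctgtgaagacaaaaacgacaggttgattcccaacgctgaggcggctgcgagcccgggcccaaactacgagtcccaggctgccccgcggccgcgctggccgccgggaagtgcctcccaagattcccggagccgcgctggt
Mrpl12: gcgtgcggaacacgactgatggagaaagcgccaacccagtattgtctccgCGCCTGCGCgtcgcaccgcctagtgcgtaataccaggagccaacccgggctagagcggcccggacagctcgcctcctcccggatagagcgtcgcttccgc
Mrps9: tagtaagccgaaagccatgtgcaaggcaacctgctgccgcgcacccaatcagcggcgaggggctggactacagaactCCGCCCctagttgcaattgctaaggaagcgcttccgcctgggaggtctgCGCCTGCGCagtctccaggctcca
Mrps31: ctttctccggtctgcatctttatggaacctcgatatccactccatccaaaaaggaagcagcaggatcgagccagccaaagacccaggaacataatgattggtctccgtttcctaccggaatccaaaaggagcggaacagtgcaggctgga
In these windows Mrps12 holds an ETS match just after its start, and Mrpl12 an NRF1 match 80 bases before its start. Mrps9, which did not rise, also holds an NRF1 match, which spans its start, while Mrps25 with a large rise and Mrps31 with none hold no match of these 3 motifs in the window. Over all members with an entry, the median log2 fold change was 0.72 for the 16 with and 0.84 for the 50 without an NRF1 match, and 0.82 for the 23 with and 0.78 for the 43 without an ETS match.

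The Mrps18 family has 3 members in mouse that descend from 1 bacterial relative, S18, and sit at different places in the particle. Mrps18c had 13.4, 25.7 and 19.9 CPM in IP and 5.28, 9.23 and 6.11 CPM in Input, with no overlap and a log2 fold change of 1.52 ± 0.35 (edgeR adjusted p = 0.0143), a call that ended without IP replicate 2 (edgeR adjusted p = 0.0670). Mrps18a, of the large subunit by structure, had 40.9, 60.6 and 57.8 CPM in IP and 22.3, 28.4 and 38.9 CPM in Input. It rose by 0.83 ± 0.26 on the log2 scale, just past the threshold (edgeR adjusted p = 0.0490; with the replicate block 0.00603), and 11 alternatives of scaling, filtering or left-out libraries ended this call. Among them were the fits without IP replicate 2 or 3 or Input replicate 1 or 2, at edgeR adjusted p-values between 0.110 and 0.157. Mrps18b had 1.80, 5.41 and 2.89 CPM in IP and 1.74, 2.80 and 1.66 CPM in Input, which overlap, and was not called at a log2 fold change of 0.70 ± 0.57 (edgeR adjusted p = 0.407).

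Of the other members with known roles, Mrpl44 carries a fold related to RNase III, and Mrps7 is the relative of bacterial S7, which organises the head of the small subunit. Mrpl44 had 19.5, 24.7 and 21.5 CPM in IP and 13.1, 11.6 and 13.5 CPM in Input, with no overlap and a log2 fold change of 0.78 ± 0.23 (edgeR adjusted p = 0.0362). In all, 10 of the alternatives ended this call. Among them were the fits without IP replicate 2 (edgeR adjusted p = 0.138), IP replicate 3, Input replicate 1 or Input replicate 2, and scaling by library total (edgeR adjusted p = 0.0608). Mrps7 had 46.4, 67.4 and 62.6 CPM in IP and 30.1, 36.2 and 46.6 CPM in Input, where the lowest IP value lay just under the highest Input value. Its log2 fold change of 0.64 ± 0.24 passed with the replicate block (edgeR adjusted p = 0.0179) but not without it (edgeR adjusted p = 0.0814).

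Members differed widely in level although their proteins assemble into 1 particle. Per kilobase of mRNA, the median level was 21.9, 26.7 and 25.6 CPM in IP replicates 1, 2 and 3 and 12.3, 16.2 and 14.5 CPM in Input. The highest member stood 51.3 to 68.7 times above the lowest within an IP library and 40.2 to 197 times within an Input library. In each Input library the lowest was Mrps34, which had 17 reads in Input replicate 3, and 77.8% of its exon bases overlap other annotated genes. The order was much alike in both groups, with Pearson's r = 0.95 and Spearman's rho = 0.94 over the 75 members between mean log2 levels per kilobase, a description of genes that share transcript lengths and libraries. The most abundant by the mean of both groups were Mrpl42 and Mrpl30 of the large and Mrps21 and Mrps15 of the small subunit, at 80.9, 80.1, 88.8 and 53.2 CPM per kilobase. The order depends on the group: in IP alone, looked up after the values were seen, the highest were Mrpl41 and Mrpl52 (110.4 and 106 CPM per kilobase) of the large subunit and Mrps21 and Mrps12 (117 and 82.7 CPM per kilobase) of the small subunit, and of these Mrpl41, Mrpl52 and Mrps12 rose.

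Mrpl42, Mrpl30, Mrps21 and Mrps15 were the top 2 of each subunit by pooled mean, and not the 4 highest of all members. Mrpl41, Mrpl52, Mrpl18, Mrpl33, Mrpl20, Mrpl34 and Mrpl36 lay above Mrps15, at 54.8 to 77.1 CPM per kilobase, and all of them rose. Of Mrpl42, Mrpl30, Mrps21 and Mrps15, none passed the edgeR test without the replicate block. All 4 did with it (edgeR adjusted p = 0.00883 for Mrpl42, 0.0411 for Mrpl30, 0.00192 for Mrps21 and 0.0233 for Mrps15). The replicates were far apart in each. Mrps21, for example, had 36.3, 65.1 and 70.5 CPM in IP and 16.2, 32.6 and 39.4 CPM in Input, so that IP replicate 1 lay below Input replicate 3 while IP was higher within every replicate number. Mrpl30 had 43.4, 119 and 119 CPM in IP and 39.4, 63.6 and 80.3 CPM in Input, and its replicate 1 was again low on both sides. Mrpl42 and Mrps21 have annotated copies of at least 95% identity over 64.4% and 54.1% of their mRNA, so part of their reads may map to more than 1 place.

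At the low end per kilobase stood Mrpl47 and Mrpl48 of the large subunit and Mrps18b and Mrps34 of the small subunit, at 5.06, 4.88, 2.52 and 1.94 CPM. This order depends on the mRNA length used, which was 3364 bases for Mrpl47 and 4285 bases for Mrpl48. Before division by length, the IP means of Mrpl47 and Mrpl48 were 21.7 and 27.2 CPM. Those of Mrpl22 and Mrpl24 were lower, at 7.44 and 8.70 CPM. A copy, Gm6997, matches 86.0% of the mRNA of Mrpl22, and 26.3% of the exon bases of Mrpl24 overlap Rrnad1. The part of this copy and this overlap in their low levels was not tested. Mrpl48 rose (log2 fold change 0.90 ± 0.25, edgeR adjusted p = 0.0314), a call that held, of the fits without 1 library, only in that without Input replicate 3, with edgeR adjusted p-values of 0.0612 to 0.118 in the other 5. Mrpl47 narrowly missed the threshold (edgeR adjusted p = 0.0533) and passed it with the block (edgeR adjusted p = 0.0338), with DESeq2 (adjusted p = 0.0184) and with limma-voom (adjusted p = 0.0486). Mrps34, the member nearest the minimum, had 138, 127 and 148 reads in IP and 51, 63 and 17 in Input. It was not called at a log2 fold change of 1.502 ± 0.64 (edgeR adjusted p = 0.120), and 77.8% of its exon bases overlap other annotated genes.

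The rows just outside the minimum were Mrpl23 and Mrpl53. Mrpl23 had 46, 49 and 32 reads in IP and 27, 13 and 13 in Input, at most 0.941 CPM, and 78.0% of its mRNA is matched by a copy, Mrpl23-ps1. Mrpl53 had 0 reads in all 6 libraries, which allows up to 0.0681 CPM in the shallowest of them by a count of 3 reads, and 88.0% of its exon bases overlap other annotated genes. Of the members, 74 reached 1 CPM in all 6 libraries, and Mrps34 in 5.

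Overlaps and copies also touched other members. At least 10% of exon bases were shared with another annotated gene in 17 members, and a copy of at least 95% identity covered 50% or more of the mRNA in 5. Among the 53 members with neither, 24 rose. Reads set aside as ambiguous made up 1.53% to 1.92% of records in the IP tables and 7.37% to 13.2% in the Input tables, and those aligned at more than 1 place 38.5% to 45.0% in IP and 23.6% to 27.2% in Input. The part of these differences in the members' changes was not tested. Mrpl46 and Mrps11, a large and a small subunit gene that overlap head to head on chromosome 7 and were picked for this after their values were seen, had log2 fold changes of 1.24 ± 0.30 (edgeR adjusted p = 0.0190) and 1.04 ± 0.36 (edgeR adjusted p = 0.0634; 0.0139 with the replicate block). The call of Mrpl46 ended without IP replicate 2 (edgeR adjusted p = 0.0755) or IP replicate 3 (edgeR adjusted p = 0.0580).

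Changes were larger for members that encode short proteins. Of the 22 members under 150 amino acids 17 rose (median log2 fold change 1.09), and of the 16 from 150 to under 200 amino acids 9 rose, with a median of 0.86. Of the 22 from 200 to under 300 amino acids 5 rose (median 0.70), and of the 15 with 300 or more 2 rose (median 0.52), namely Mrpl44 and Mrps35, which is named here after its value was seen and held its call, of the fits without 1 library, only in that without Input replicate 3. Across the 75 members, log2 fold change and log2 protein length had Pearson's r = -0.55 and Spearman's rho = -0.58, and with log2 mRNA length r = -0.30 and rho = -0.36. Against mean level r was 0.00. These are descriptions over genes measured in the same 6 libraries, and genes are not independent replicates.

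Protein-coding genes as a whole shared this gradient. Their median log2 fold change in those 4 length classes was 0.72, 0.56, 0.33 and -0.11, with 34.0%, 29.8%, 18.1% and 5.96% of genes rising. With log2 protein length, Pearson's r was -0.20 and Spearman's rho -0.33 over 14239 genes. The medians of the members were higher than those of protein-coding genes of like length in each class. In 4 classes of rising mRNA length, from under 750 to 2500 bases or more, the members' medians were 1.11, 0.87, 0.56 and 0.82, beside 0.78, 0.59, 0.25 and -0.12 for protein-coding genes. Within the classes the part of length was not tested. The 6 members with the lowest log2 fold changes, taken after their values were seen, were Mrps9, Mrpl19, Mrps31, Mrps5, Mrps22 and Mrpl24, which encode 390, 292, 384, 432, 359 and 216 amino acids.

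**Figure D4:**
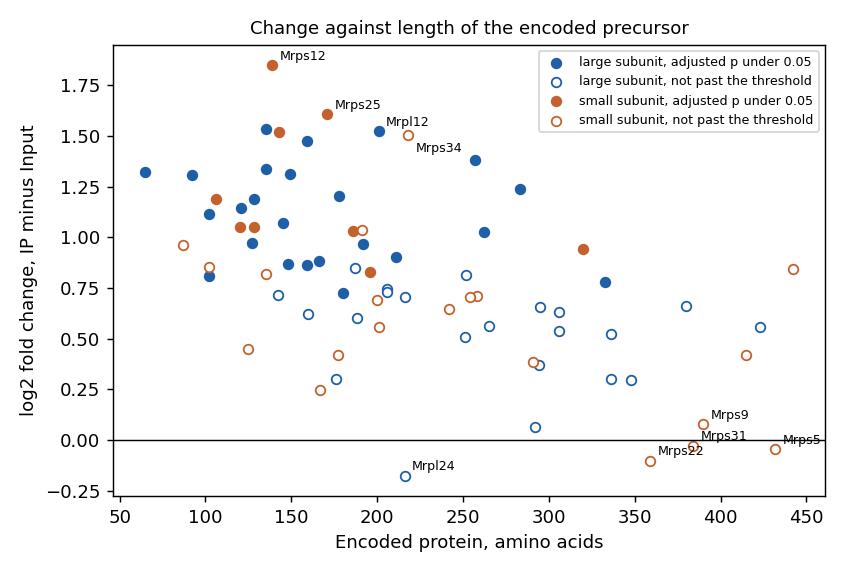
Log2 fold change, IP minus Input, of each member against the length of the encoded protein in amino acids, with colours for the subunit and filled points for an adjusted p under 0.05. Filled points crowd at the upper left, where proteins are shorter than 200 amino acids, and the small subunit genes near 0 lie at the right.

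The lists of other genes of mitochondrial translation hold few members each, and their differences from the mitoribosome genes were not tested. Of 6 mitoribosome proteins with symbols outside the rule, 3 rose and 0 fell with edgeR, DESeq2 and limma-voom alike and at an unadjusted p under 0.05, while 4 rose and 0 fell under the replicate block. Their median log2 fold change was 0.85. Aurkaip1, of the small subunit, had 102, 133 and 148 CPM in IP and 46.8, 62.7 and 50.3 CPM in Input, with a log2 fold change of 1.26 ± 0.21 (edgeR adjusted p = 0.00436). Gadd45gip1 (CRIF1), near the exit tunnel of the large subunit, and Ict1, a peptidyl-tRNA hydrolase that is also a large subunit protein, rose by 1.13 and 1.005 on the log2 scale (edgeR adjusted p = 0.0152 and 0.0390). Both lost their call without IP replicate 2 or IP replicate 3, and Ict1 also without Input replicate 1 or 2, at edgeR adjusted p-values between 0.0591 and 0.144. Dap3, the GTP-binding small subunit protein, had 46.3, 44.9 and 46.9 CPM in IP and 35.2, 36.8 and 38.6 CPM in Input, which do not overlap, but was not called at a log2 fold change of 0.32 (edgeR adjusted p = 0.222). Ptcd3 was not called either, at -0.06, and Chchd1 passed only with the replicate block (edgeR adjusted p = 0.345 without it and 0.0341 with it).

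Of 12 mitochondrial translation factors, 1 rose and 2 fell (2 and 2 with the block), and their median log2 fold change was -0.03. The factor that rose was Mrrf, which recycles the ribosome after termination, at 28.5, 31.4 and 31.6 CPM in IP and 19.1, 18.6 and 15.9 CPM in Input (log2 fold change 0.77 ± 0.20, edgeR adjusted p = 0.0254). Gfm2, which works with Mrrf in recycling, fell, at 10.6, 8.18 and 10.6 CPM in IP and 17.4, 17.8 and 28.1 CPM in Input (log2 fold change -1.11 ± 0.29, edgeR adjusted p = 0.0231). Guf1, a ribosome-bound GTPase of the elongation factor 4 family, fell by 1.13 on the log2 scale (edgeR adjusted p = 0.0255). These 3 calls ended without IP replicate 2 (edgeR adjusted p = 0.0879 for Mrrf, 0.0886 for Gfm2 and 0.0965 for Guf1) or IP replicate 3, those of Mrrf and Guf1 also without Input replicate 2, and that of Guf1 without Input replicate 1.

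Of 23 genes of mitoribosome assembly and rRNA modification 1 rose, Ngrn (log2 fold change 0.84, edgeR adjusted p = 0.0139), which is needed for 16S rRNA stability, and none fell, with 1 lower by DESeq2, 0 lower by limma-voom and 1 lower at an unadjusted p under 0.05. With the replicate block 4 of the 23 rose and 1 fell. Their median was 0.35. Of 17 mitochondrial aminoacyl-tRNA synthetases 1 rose and 1 fell, also with the block, with a median of -0.01. Lars2, which charges the leucine tRNA, had 3157, 1613 and 1621 CPM in IP and 731, 683 and 765 CPM in Input (log2 fold change 1.55, edgeR adjusted p = 0.00526). Its IP replicate 1 lay far above IP replicates 2 and 3. No copies or overlaps were looked up for Lars2, so the source of its reads was not tested. Hars2, which charges the histidine tRNA, fell by 1.18 on the log2 scale (edgeR adjusted p = 0.0238). The call of Hars2 ended without any 1 of the IP libraries (edgeR adjusted p of 0.0504 to 0.0894). None of 9 genes of mitochondrial DNA upkeep and transcription passed the test with edgeR, DESeq2 or limma-voom or at an unadjusted p under 0.05, and 1 rose with the block; their median was 0.22.

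The nuclear genes of the respiratory complexes and ATP synthase rose alongside the mitoribosome genes. Of 36 complex I genes 25 rose, of 9 complex III genes 5, of 16 complex IV genes 10 and of 17 complex V genes 8. None of them fell with edgeR, DESeq2 or limma-voom, and 1 of complex V was lower at an unadjusted p under 0.05. With the replicate block 31, 6, 11 and 10 of these rose and none fell. Over all 78 of these genes 48 rose, and 58 with the block, and their median log2 fold change was 1.06. Of all genes tested 9.6% rose, and 15.9% with the block. Among protein-coding genes under 150 amino acids 34.0% rose without the block, and the part of protein length in these lists was not tested. Ndufa1 of complex I had 103, 102 and 99.99 CPM in IP and 21.1, 37.7 and 45.6 CPM in Input (log2 fold change 1.55, edgeR adjusted p = 0.00568). Uqcrq of complex III, Cox6a2 of complex IV and Atp5k of complex V had log2 fold changes of 1.52, 1.67 and 1.40 (edgeR adjusted p = 0.00265, 0.00244 and 0.0102). The difference of these lists from the mitoribosome genes was not tested.

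Few genes of the cytosolic ribosome, whose particle carries the tag, passed the test. Of 77 tested genes for cytosolic ribosomal proteins 0 rose and 1 fell by edgeR, with 7 higher and 1 lower at an unadjusted p under 0.05, 1 higher and 1 lower with DESeq2, 2 higher and 0 lower with limma-voom, and 8 higher and 0 lower with the block. Their median log2 fold change was 0.25. The gene that fell was Rpl9, at 0.527, 0.545 and 0.552 CPM in IP and 1.37, 2.64 and 2.45 CPM in Input, and counts of this family are uncertain because of its many processed copies. Its call ended when any 1 of the 6 libraries was left out (edgeR adjusted p of 0.0712 to 0.170) and with the replicate block (edgeR adjusted p = 0.0907).

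**Figure D5:**
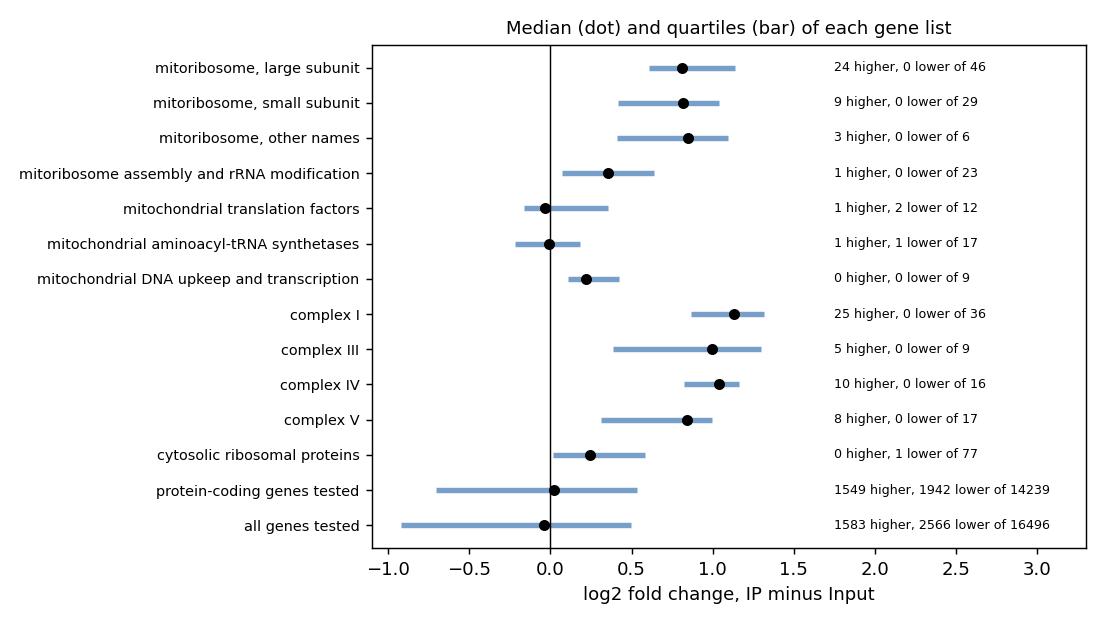
Median (dot) and quartiles (bar) of the log2 fold change, IP minus Input, for the mitoribosome genes by subunit and for other gene lists, with the number of genes that passed an adjusted p under 0.05 in each direction. The mitoribosome lists and the respiratory complexes have medians between 0.81 and 1.13, while the synthetases, translation factors and all genes lie near 0.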

How the data were processed

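The 3 IP and 3 Input libraries were grouped and numbered by their titles. Per the labels' protocols, polysomes with the tag were captured from thalamic homogenate on magnetic beads with anti-EGFP antibodies. The authors deposited whole-number read counts per gene. STAR 2.0.0e, HTSeq and mm10 are named in the submitters' processing notes. For annotation, counting mode and strand, nothing is given in the sources used here. Lanes 3, 8 and 4 held replicates 1, 2 and 3, so effects of lane cannot be told apart from those of replicate number. Summary rows stayed out of library sizes and tests; no-feature records made up 7.65% to 7.85% of the IP tables and 14.0% to 17.7% of the Input tables. No pair of libraries within a group was alike to within sampling noise.

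Genes were kept by filterByExpr by group, scaled with TMM factors (edgeR 4.0.16, R 4.3.3) and tested two-sided with the quasi-likelihood test on group over 16496 genes, with Benjamini-Hochberg adjustment. CPM is TMM-scaled unless stated, and SE refers to the log2 fold change. The script was tested on simulated data. Alternatives included upper-quartile, RLE and library total scaling, other low-count filters, limma-voom 3.58.1, DESeq2 1.42.0, a replicate block, fits without each library or replicate number, and a fit without clone-accession features. Deviations of same-numbered libraries from their group means correlated at 0.456, 0.215 and 0.246 over all tested genes. All were over 0.1, so the numbers of the titles were taken to pair the libraries, and block values stand beside the counts, and beside single genes where they change a call.

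Lengths and overlaps came from GENCODE M21 on GRCm38, the assembly of mm10, copies from blastn 2.17.0 (at least 95% identity over 100 bases), and promoters from RefSeq. Lengths are those of 1 annotated transcript per gene, the principal one and the longest where several ranked alike. Overlaps and copies were looked up only for rows that met the symbol. Named genes were the 10 largest rises, the flat pair, the 2 most and 2 least abundant per kilobase in each subunit, 9 members set for their roles, and up to 3 called genes per other list in its main direction and 1 in the other. The members and lists were chosen with earlier results of these data known. With 44081149 to 54421395 gene reads per library, counting error was small except near 1 CPM, and the limit from a count of 3 reads covers counting error only.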

Additional observations from a re-analysis of the deposited data

How the results depend on the processing

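Leaving out 1 library moved the number of members that rose between 17 and 41, and leaving out both libraries of a replicate number moved it between 4 and 32. For the large subunit these counts ranged from 11 to 28 and from 2 to 24, and for the small subunit from 5 to 13 and from 2 to 8. With the replicate block, 50 members rose, 34 of the large and 16 of the small subunit. No member fell under any of these settings or scalings. In the other mitochondrial lists, 54 of 145 genes tested rose and 3 fell in the fit without the block. Over all genes tested 9.6% rose and 15.6% fell. Of the 54, 48 were nuclear genes of complexes I, III, IV and V, and 3 were mitoribosome proteins with other names. Leaving out libraries or replicates gave between 3 and 59 higher and between 0 and 3 lower.

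The count of members with an interval inside 1.5-fold was 1 with upper-quartile scaling, 1 with no low-count filter, 4 with the replicate block and 11 with the limit at 2-fold, and between 0 and 1 when a library or replicate was left out. The sign of Mrps31 turned without IP replicate 1 (0.10), without Input replicate 1 (0.022) and without replicate 1 (0.14), over a range of -0.13 to 0.14 when libraries or replicates were left out. That of Mrps9 turned with upper-quartile scaling (-0.010) and without replicate 2 (-0.018), over a range of -0.018 to 0.22. The cause was not tested.

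Other scalings gave 27 to 32 members higher, with a median of the members between 0.72 and 0.80, DESeq2 gave 39 and limma-voom 36, and no scaling moved the median over all genes by more than 0.0905. Over the named members, 45 values under alternatives were no longer past the threshold and 18 newly were. The block changed no call of a named member other than those given above. With 3 libraries a group, an exact permutation test of 1 value cannot go below p = 0.1, so single sums carry no test.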
